A study of Homo sapiens with 50 samples.

Results

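Hairpins against the canonical H2A histones were followed in a screen that asked which regulators of chromatin limit the lifespan of fibroblasts in culture. They were the rows of the table of tags per hairpin that named a single gene whose name is made of HIST, a digit and H2A. This rule found 43 hairpins against 11 genes, of 3443 hairpins in all. The genes were HIST1H2AA, HIST1H2AB and HIST1H2AE, HIST2H2AB and HIST3H2A with 5 hairpins each, HIST1H2AC and HIST1H2AH with 4, HIST1H2AG and HIST1H2AK with 3, and HIST1H2AM and HIST2H2AC with 2. The family had 17 names in the table, and 6 of them (HIST1H2AD, HIST1H2AI, HIST1H2AJ, HIST1H2AL, HIST2H2AA3 and HIST2H2AA4) stood only in rows that named several genes.

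The cells were IMR90, fibroblasts of human lung with a finite number of divisions before replicative senescence, grown at 3% oxygen and infected with pooled lentiviruses at a multiplicity of infection of 0.3. Genomic DNA was taken at population doubling (PD) 40, the proliferating control, and at PD45, PD50, PD55 and PD60, where the cultures were senescent. Each group comprised 10 plates, and all plates carried hairpins from a pair of the 5 initial pools, also those at PD40. The deposited table had 1 column per population doubling, and none per plate. It was taken to hold the 10 plates together, which neither labels nor header state. There were thus no replicates, no test between times was possible, and each interval given covers counting error alone. Each initial pool entered 4 of the 10 plates, and a pooled column does not show whether a hairpin expanded in 1 of them or in all.

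Histone H2A is one of the 4 core histones. It pairs with H2B, and a pair of such dimers flanks the H3 and H4 tetramer in each nucleosome. The canonical genes lie in clusters, are transcribed mostly during DNA replication, and encode nearly the same protein from many copies, so each gene supplies a part of the H2A pool. Canonical H2A is the substrate of the ubiquitin mark placed on its C-terminal tail by Polycomb complex PRC1. A hairpin against 1 copy may leave the others untouched or, where sequences are shared, reach several of them. Whether any hairpin lowered its target was not analysed here.

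Column totals ran from 8270745 tags (PD60) to 11505688 tags (PD55). Levels are given as CPM, the tags of a hairpin per 1000000 tags of its column, and ratios as CPM at a later time over CPM at PD40, with an exact 95% counting interval in parentheses for the hairpins the results turn on. Tags were PCR products without molecular identifiers, so these intervals leave out the error of amplification. The median hairpin of the library had 1 tag at PD60 and 1019 tags at PD40. The non-targeting hairpin had 4562, 1775, 669, 133 and 39 tags at the 5 times. It was 112-fold lower at PD60 than at PD40 (81.9 to 158).

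Canonical H2A hairpins took a growing share of the culture up to PD55 and a smaller one at PD60. Their part of all tags was 1.01%, 1.45%, 3.32%, 5.04% and 2.87% in order of population doubling, while they made up 1.25% of the hairpins. The exact binomial 95% intervals were 5.03% to 5.05% at PD55 and 2.86% to 2.88% at PD60. A tag share counts integrated copies, and more cells with a hairpin cannot be told apart from uneven amplification.

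The share rested on 3 hairpins, HIST1H2AH TRCN0000106761, HIST2H2AB TRCN0000074248 and HIST1H2AC TRCN0000074575. At the 5 times they held 37.4%, 60.5%, 87.1%, 97.5% and 98.0% of the members' tags. The other 40 members went the opposite way, with 0.632%, 0.574%, 0.428%, 0.125% and 0.0579% of all tags. The effective number of members, the exponential of their Shannon entropy, was 19.9, 9.54, 3.99, 2.64 and 2.29 at the 5 times. The same 3 were the members that reached rank 100 or better by abundance in any column, against 6.94% of all hairpins.

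Most members were lower at PD60 than at PD40, as were most hairpins of the library. Of 42 members with at least 10 tags in either column, 2 exceeded PD40 by over 2-fold at PD60, beside 2.28% of all 3418 hairpins that passed this minimum. Over 2-fold lower were 38 members, beside 95.3% of all hairpins, and 2 were within 2-fold, beside 2.43%. No tag at PD60 was left for 18 members, beside 43.8% of all hairpins. All 42 passed the minimum through PD40, where they had 89 tags or more. The remaining member, HIST3H2A TRCN0000106910, had 3 tags at PD40 and at most 6 at any time.

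On a log2 scale of CPM plus 1, the members' median was -5.17 at PD60, against -5.86 for all hairpins. Above the all-hairpin median lay 26 of the 42, as 50% of hairpins do by construction. Among the 26 were all 13 measured members with 323 tags or fewer at PD40. With the pseudocount, even a fall to 0 tags from such a start stays above -5.86, so their side was fixed by their start. With counts under 3 raised to a floor of 3 counts, which applied to 25 members, the medians were -6.58 for members and -7.12 for all hairpins. A scaling by trimmed means (TMM), which assumes that most hairpins do not change, moved the all-hairpin median to -1.84 and that of the members to -1.72. Members therefore stood 0.69 above the all-hairpin median on column totals and 0.12 above it with TMM. As TMM applies a single factor to each column, this distance could change only through the pseudocount. With TMM, 11 members were over 2-fold higher, or 26.2%, beside 18.8% of all hairpins. Directions below are relative to the column total unless TMM is named.

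The members' losses built up over the 4 intervals. At PD45 5 were over 2-fold higher, beside 5.73% of all hairpins, and 20 over 2-fold lower, beside 63.2%. At PD50 5 were higher, beside 4.94%, and 28 lower, beside 81.9%. At PD55 3 were higher, beside 2.92%, and 35 lower, beside 91.7%. At 0 tags were 0 members at PD45, 2 at PD50 and 3 at PD55, beside 1.11%, 9.15% and 18% of all hairpins. The members' median log2 fold change was -0.98 at PD45, -2.99 at PD50 and -4.59 at PD55, against -1.63, -3.46 and -4.93 for all hairpins. Higher at 1 or more of the later times were 6 members, beside 8.51% of all hairpins, and 2 were higher at all 4 times, beside 0.79%. For 5 members the highest share came between PD45 and PD55 at 2-fold or more above PD40, beside 6.96%. A fall or no change at every step was seen for 27 members, or 64.3%, beside 64.2% of all hairpins.

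HIST1H2AH, the gene now called H2AC12, had the 1 hairpin among the 43 whose share grew at every step. TRCN0000106761 had 3220, 8668, 26275, 114664 and 164932 tags from PD40 to PD60. Its level was 19942 CPM at PD60 and 373 CPM at PD40, and its rank among all hairpins ran 633, 210, 50, 22 and 13 over the 5 times. Each step multiplied its share, by 2.64 from PD40 to PD45 (2.54 to 2.75), 3.14 in the next step (3.06 to 3.22), 3.22 in the third (3.17 to 3.26) and 2.00 in the last (1.99 to 2.02). It was 53.4-fold higher at PD60 (51.6 to 55.3), 11.59 log2 units above the median of all hairpins.

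The other 3 HIST1H2AH hairpins went the opposite way. TRCN0000106763 had 1552, 377, 136, 17 and 9 tags and was 165-fold lower at PD60. TRCN0000106760 had 1757, 914, 337, 40 and 1 tags, and with 1 tag its ratio at PD60 is known only to lie between 1.5e-05 and 0.00331. TRCN0000106762 had 509, 274, 106, 15 and 27 tags and was 18.1-fold lower. The hairpins of this gene thus covered the widest range of the family at PD60, with log2 fold changes of -7.51 to 5.74 and an SD of 6.03. Their mean was -3.01, and without TRCN0000106761 it was -5.92, next to the all-hairpin median of -5.86.

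HIST2H2AB, now H2AC21, had the most abundant hairpin of the family at the first 4 times. TRCN0000074248 had 17540, 50920, 174557, 388360 and 59021 tags from PD40 to PD60. Its ranks were 61, 22, 9, 6 and 32, and its 33754 CPM at PD55 were 67.0% of the members' tags. Its share was 16.6-fold above PD40 at PD55 (16.4 to 16.9) and 3.51-fold above it at PD60 (3.45 to 3.57). Between PD55 and PD60 it fell 4.73-fold, whereas TRCN0000106761 gained 2.00-fold. These are the 2 members over 2-fold higher at all 4 later times, and they parted in the last interval.

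The 4 further HIST2H2AB hairpins were all lower at PD60. TRCN0000074252 had 6198, 4617, 4061, 379 and 20 tags and TRCN0000074250 had 5025, 2645, 1788, 232 and 36. Both were among the 5 members that started highest, and they were 297-fold and 134-fold lower. TRCN0000074249 had 1623, 1035, 859, 286 and 175 tags and was 8.89-fold lower. TRCN0000074251 had 310, 12, 1, 1 and 0 tags, at least 99.1-fold lower. The gene's mean log2 fold change was -4.20 (SD 3.79 over 5 hairpins) and -5.70 without TRCN0000074248.

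HIST1H2AC, now H2AC6, had the highest mean of the family with a pseudocount of 1 CPM, with 3 of its 4 hairpins at 0.379 times PD40 or above at PD60. TRCN0000074575 had 11809, 17537, 44464, 62288 and 8785 tags from PD40 to PD60. It was 3.96-fold above PD40 at PD55 (3.88 to 4.03) and 0.776 times its PD40 level at PD60 (0.755 to 0.798), after a 5.10-fold fall in the last interval. TRCN0000074577 had 4125, 5567, 4835, 3100 and 2555 tags, a ratio of 0.646 at PD60. TRCN0000074573 had 3955, 6338, 5964, 2060 and 1438 tags, a ratio of 0.379. Both were named after their values were seen.

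The last HIST1H2AC hairpin, TRCN0000074576, did not follow them, with 1638, 166, 31, 1 and 3 tags. TRCN0000074575 and TRCN0000074577 were the 2 members within 2-fold of PD40 at PD60 on column totals, and with TMM their log2 fold changes were 6.47 and 6.19. The gene's mean log2 fold change of -2.38 (SD 3.20 over 4 hairpins) was at rank 8 of 631 genes with at least 3 hairpins, and without its most abundant hairpin it was -3.05. With a pseudocount of 10 CPM it was -1.65, below HIST1H2AH at -1.29. With TMM the mean was 4.03, a change of sign, as it was for HIST1H2AH (2.84) and HIST2H2AB (1.68). Scaled without the 50 hairpins most abundant at PD60 it was 0.37 for HIST1H2AC.

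A further group of 3 hairpins rose early and then fell. HIST1H2AE TRCN0000106840 had 2389, 7823, 5951, 3375 and 176 tags from PD40 to PD60. HIST1H2AE TRCN0000106844 had 1797, 4467, 3258, 1651 and 125 tags. HIST1H2AM TRCN0000106940 had 2460, 5625, 5039, 2509 and 172 tags. All 3 had their highest share at PD45, where they were 3.22-fold, 2.44-fold and 2.25-fold above PD40, and at PD60 they were 13.0-fold, 13.8-fold and 13.7-fold below it. The counting intervals of these last values overlapped (11.2 to 15.3, 11.5 to 16.7 and 11.7 to 16.1).

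These 3 hairpins, against 2 genes, kept close to each other. They were grouped by a highest share at PD45, 2-fold or more above PD40, so part of this likeness follows from the choice. At each time the highest of the 3 was at most 2.04 times the lowest, in CPM, while from PD45 to PD60 they fell 30.8-fold to 41.9-fold. How close other hairpins with such a peak kept to each other was not analysed. Of all hairpins, 2.87% peaked at PD45 over 2-fold above PD40 and ended over 2-fold below it. With TMM, which raises all late values, the PD60 log2 fold changes of the 3 were 3.10, 3.01 and 3.03, against -3.64, -3.70 and -3.72 on column totals. Whether the 3 share a target sequence was not analysed here.

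The other hairpins against HIST1H2AE and HIST1H2AM started lower and were at 0 at PD60. For HIST1H2AE, TRCN0000106841 had 518, 230, 159, 42 and 0 tags, TRCN0000106842 had 270, 41, 10, 3 and 0, and TRCN0000106843 had 89, 2, 0, 1 and 0. For HIST1H2AM, TRCN0000106941 had 372, 186, 18, 1 and 0 tags. The bound on their fall was at least 166-fold, 86.3-fold, 28.4-fold and 119-fold lower, so it followed from where each began.

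All hairpins of HIST1H2AB and HIST1H2AK were at 0 at PD60. The 5 HIST1H2AB hairpins had 119 to 1313 tags at PD40, and together 3228, 1415, 277, 33 and 0 tags at the 5 times. The one that started highest, TRCN0000106951 with 1313 tags, had 798, 146, 20 and 0 afterwards and was at least 420-fold lower. The 3 HIST1H2AK hairpins had 175 to 319 tags at PD40 and together 762, 250, 19, 2 and 0. No hairpin of either gene was above its PD40 level at any later time. The bound for the HIST1H2AK hairpin that started highest, TRCN0000107004 with 319 tags, was at least 102-fold lower.

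HIST1H2AG had a mean of -6.94 (SD 1.54 over 3 hairpins), the lowest of the family on column totals, and its 3 hairpins together had 5301, 2912, 731, 110 and 5 tags. HIST1H2AB was lower with TMM (-2.84, against -2.34 for HIST1H2AG) and without the 50 hairpins most abundant at PD60 (-5.88 against -5.81). With 0 tags for HIST1H2AB and 5 for HIST1H2AG at PD60, their order depends on how counts near 0 are treated. HIST1H2AG TRCN0000106975 had 3232, 2584, 642, 99 and 2 tags and a log2 fold change of -8.24, which rests on 2 tags. HIST1H2AA, which encodes the H2A known from testis (TH2A), followed with -6.44 (SD 0.96 over 5 hairpins). Its most abundant hairpin, TRCN0000106701, had 4518, 1753, 571, 82 and 21 tags and was 206-fold lower at PD60 (135 to 334). TRCN0000106700 had 797, 1146, 772, 43 and 1 tags, so it lay above PD40 at PD45 by less than 2-fold and fell later. The HIST1H2AG and HIST1H2AA means ranked 586 and 522 of 631.

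HIST3H2A, now H2AC25, had 4 measured hairpins that all fell, with a mean of -5.45 and an SD of 0.44. TRCN0000106912 had 1295, 789, 669, 182 and 15 tags, and TRCN0000106911 had 304, 502, 212, 10 and 1. TRCN0000106913 had 505, 19, 1, 1 and 0 tags, so it was 27.1-fold lower by PD45, a time at which TRCN0000106911 was at 1.62 times its PD40 level. HIST2H2AC, now H2AC20, had 2 hairpins that started low. TRCN0000106846 had 209, 68, 219, 118 and 8 tags, highest at PD50 at 1.07 times PD40 (0.878 to 1.30), and TRCN0000106845 had 185, 4, 0, 1 and 0.

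Of the 11 genes, 2 had a hairpin over 2-fold higher at PD60, HIST1H2AH and HIST2H2AB, and each had 1. Among the 9 genes with at least 3 measured hairpins these are 2 of 9, where 10.1% of the 631 genes had such a hairpin. All measured hairpins were over 2-fold lower for 8 of the 11 genes. Of all hairpins in the library 95.3% were over 2-fold lower, and the share of all genes with every hairpin lower was not counted. Gene means ran from -6.94 to -2.38, beside a median of -5.59 over the means of the 631 genes. In order they were HIST1H2AC, HIST1H2AH, HIST2H2AC, HIST2H2AB, HIST1H2AE, HIST1H2AM, HIST1H2AK, HIST3H2A, HIST1H2AB, HIST1H2AA and HIST1H2AG. Neighbours in this order differed by less than the SD over hairpins of at least one of them, except HIST1H2AK and HIST3H2A (-4.89 and -5.45, SD 0.43 and 0.44), and hairpins against 1 gene are not replicates of a condition.

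With counts under 3 at the floor, the means were -2.86 for HIST1H2AC, -3.74 for HIST1H2AH, -4.65 for HIST2H2AB, -5.22 for HIST1H2AE, -7.14 for HIST1H2AB and -8.65 for HIST1H2AG. The floor moved 1 gene past others in this order. HIST2H2AC stood at -4.09 on the log2 scale with its pseudocount, above HIST2H2AB and HIST1H2AE, and at -5.27 with the floor, below both.

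Starting level went with what could be seen. The library was divided into 5 equal parts by PD40 count, quintile 1 the lowest. Quintile 1 (up to 323 tags) held 14 members, 13 of them measured, and 11 of the 13 were at 0 at PD60, beside 84.3% of all hairpins in it. In quintile 2 5 of 7 were at 0, beside 69.8%, and in quintile 3 2 of 4, beside 45.7%. In quintiles 4 and 5 0 of 9 members each were at 0, beside 19.2% and 1.45%.

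Quintile 5, from 2998 tags, held the 9 members that carried the group's spread. They belonged to 5 genes, and their log2 fold changes at PD60 ran from -8.24 to 5.74 with a median of -1.39, against a median of -6.24 for all hairpins of the quintile. Over 2-fold higher were 2 of the 9, beside 6.24%. In quintile 4 the median was -6.44 for members and -7.19 for all hairpins, and in quintile 3 -6.66 and -6.62. It was -5.90 for members and -5.75 for all hairpins in quintile 2, and -4.92 and -4.42 in quintile 1. Members thus stood above the library in quintiles 4 and 5 and below it in quintiles 1 to 3. These differences were not tested.

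The catalogue number of a hairpin went with its start too. Members with TRC catalogue numbers below 100000, all against HIST1H2AC or HIST2H2AB, had a median of 4125 tags at PD40 (9 hairpins), and the 33 measured members with higher numbers had 518. In the whole library these medians were 1119 and 879 tags. At PD60 the 9 had a median log2 fold change of -3.09 and the 33 of -5.24, with 1 hairpin over 2-fold higher in each set. The part of starting level or of catalogue series in the gene order was not tested.

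Hairpins that named several genes, at least 1 of them a canonical H2A gene, numbered 35, of which 16 named canonical H2A genes alone. Of the 35, 2 were over 2-fold higher at PD60, beside 2.28% of all hairpins. Both named HIST1H2AI, HIST1H2AJ and the H3 gene HIST1H3F among others. The other rows with these names were not over 2-fold higher, among them TRCN0000106665 (2711 tags at PD40, 0 at PD60) and TRCN0000106656 (ratio 1.6). TRCN0000106659, which also named HIST1H2AH, had 1760, 1040, 1887, 1617 and 6502 tags, a ratio of 3.85 (3.66 to 4.06). TRCN0000106668, which also named HIST1H2AB and HIST1H2AG, had 2556, 3102, 4262, 6597 and 6904 tags, a ratio of 2.82 (2.69 to 2.95). TRCN0000106731, against HIST1H2AL and HIST1H2AI, had 3909, 4348, 17976, 56028 and 5296 tags. It was 10.7-fold above PD40 at PD55 and 1.41-fold at PD60, so it peaked at PD55 as TRCN0000074248 and TRCN0000074575 did.

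The remaining hairpins of the several-gene rows mostly fell. Over 2-fold lower at PD60 were 31 of the 35, beside 95.3% of all hairpins, and 14 were at 0, beside 43.8%. Median log2 fold changes of -5.53 for the 35 and -5.56 for the 16 were found. The 2 rows that named HIST1H2AM and HIST1H2AK together, TRCN0000106943 and TRCN0000107003, had 210 and 236 tags at PD40 and 0 at PD60. Of the hairpins against HIST1H2AM alone, TRCN0000106941 also went to 0, from 372 tags. TRCN0000106940 started higher, at 2460 tags, and had 172 at PD60.

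The H2A variants, which replace canonical H2A outside replication or at set positions, had 3 of 28 measured hairpins over 2-fold higher at PD60, a median of -5.01 and 0.580% of tags. The H2B partners of H2A had 1 of 63 higher, a median of -5.73 and 0.549% of tags, and the H3 and H4 genes had 2 of 106 higher, a median of -6.10 and 4.07% of tags. Of all hairpins in the library, 2.28% were higher, and the median was -5.86. The canonical H2A values were 2 of 42, -5.17 and 2.87%. At PD55 their 5.04% of tags compared with 2.11% for the H2A variants, 1.14% for H2B and 0.723% for H3 and H4. In each of these groups 1 hairpin supplied a large part, 82.1% of the H2A variants' tags at PD55 (H2AFZ TRCN0000072585), 55.0% of those of H2B (HIST1H2BH TRCN0000106883) and 89.2% of those of H3 and H4 at PD60 (HIST4H4 TRCN0000074266). No difference between these groups was tested.

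The H2AFZ and HIST1H2BH hairpins also peaked at PD55. H2AFZ TRCN0000072585 had 12661, 18541, 107348, 198884 and 29896 tags and HIST1H2BH TRCN0000106883 had 2329, 10073, 19503, 72052 and 22325. Across the library 1.7% of hairpins had their highest share at PD55, and 2 of the 42 members did. For 31 members the highest share was at PD40, beside 80.5% of all hairpins, for 7 at PD45, beside 12%, for 1 at PD50, beside 3.86%, and for 1 at PD60, beside 1.96%.

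Genes that act on H2A were read from lists of enzymes and chaperones. Of all hairpins in the library, 95.3% were over 2-fold lower at PD60 and 2.28% higher (median -5.86). For the H2A ubiquitination list, 13 of 18 genes had hairpins, and all 64 hairpins were over 2-fold lower at PD60, with 0 higher (median -6.49). Closest to PD40 was CBX8 TRCN0000021895, against a PRC1 subunit, with 2112, 2167, 2053, 1119 and 569 tags and a ratio of 0.281. For H2A and H2B chaperones, 9 of 11 genes had hairpins and 2 of 40 hairpins were higher (median -5.78). They were against NAP1L4, a carrier of H2A and H2B dimers, with a ratio of 15.3 for TRCN0000154499, and SUPT16H, a subunit of the FACT chaperone, with 3.61 for TRCN0000001258. For H2A kinases and arginine methyltransferases, 4 of 7 genes had hairpins, and 0 of 20 hairpins were higher and 20 lower (median -6.81), with PRMT6 TRCN0000034686 the highest at a ratio of 0.334.

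By the RefSeq table of assembly GRCh38.p14, each of the 11 names matched 1 gene, 8 of them on chromosome 6 and 3 on chromosome 1 (HIST2H2AB, HIST2H2AC and HIST3H2A). For 7 of the 11 the nearest protein-coding neighbour was an H2B gene. Mean log2 fold changes of the H2A gene and its neighbour stood side by side as follows. HIST3H2A had -5.45, and HIST3H2BB -1.82 (SD 1.09, 4 hairpins). HIST1H2AG had -6.94, and HIST1H2BJ -4.95 (SD 1.69, 5 hairpins). HIST1H2AE had -4.36, and HIST1H2BG -5.61 (SD 2.35, 5 hairpins).

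The other pairs were closer or thinly covered. HIST1H2AM had -4.59, and HIST1H2BO -4.52 (SD 2.59, 5 hairpins). HIST1H2AK had -4.89, and HIST1H2BN -5.58 (SD 1.04, 4 hairpins). HIST1H2AH, with the expanding hairpin, had -3.01, and its neighbour HIST1H2BK was covered by 1 hairpin at -6.99. HIST2H2AB and HIST2H2AC are each other's nearest neighbours, at -4.20 and -4.09. For HIST1H2AC, the neighbour HIST1H2BC had no measured hairpin that named it alone. The H2A mean thus lay above that of the H2B neighbour in some pairs and below it in others, and no test was made of these pairs.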

How the data were processed

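Genomic DNA of 50 samples was amplified around the integrated hairpin, cut within it by XhoI and sequenced, per the labels' protocols. The deposited table holds counts, per the file headers as tags per hairpin. The submitters' processing notes name Bowtie 1.0.1. Neither settings nor the pooling of plates is stated in the labels or headers. Columns came to 8270745 to 11505688 tags. No test between population doublings was run, because each had 1 pooled column, and each initial pool entered 4 plates that the column does not separate.

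CPM were counts over column totals. A log2 fold change compared CPM at a later time with CPM at PD40, each with a pseudocount of 1 CPM added, and required 10 or more tags in one of both columns. Ratios carry exact 95% intervals for 2 Poisson counts, checked on simulated counts, and a count of 0 was set to 3 counts for a bound. Such a bound takes the PD40 count as exact, and the lower limit of the 95% interval lies below it. TMM factors (8.94 at PD40 to 0.0777 at PD60) came from edgeR 4.0.16 in R 4.3.3 over all hairpins. Other calculations used Python 3.11.15, numpy 2.4.6, pandas 2.3.3 and scipy 1.17.1.

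The members and lists were chosen with earlier results of these data known. Hairpins were named with all values if over 2-fold higher at PD60, at rank 100 or better in a column, among the 5 highest members at PD40, or highest between PD45 and PD55 at 2-fold or more above PD40. This took 9 of the 43, and the other members named were chosen after their values were seen. In the comparison lists up to 3 hairpins were named. Alternatives covered scaling, pseudocount, count minimum, end points, left-out hairpins and rows naming several genes.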

Additional observations from a re-analysis of the deposited data

How the results depend on the processing

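No paired analysis was possible because the table holds 1 pooled column per population doubling, with no plate number to use as a block. Leaving out a plate could not be done for the same reason. The 2 members higher at PD60 stayed 2 with pseudocounts of 10 and 0.1, with no count minimum, with at least 100 tags at PD40, with late over early columns and with several-gene rows added. They were 3 with PD55 as the end point, 5 scaled without the 50 most abundant hairpins (6.64% of all hairpins) and 11 with TMM. The members' median of -5.17 was -2.54 and -7.73 with pseudocounts of 10 and 0.1, -4.59 with PD55, -4.18 with late over early columns, -4.63 without the 50 hairpins and -1.72 with TMM. A pseudocount shifts low values by construction. TMM and the scaling without the 50 hairpins apply a single factor to each column, which moves all hairpins alike except through the pseudocount. For the other end points the cause was not tested. The members' median lay above the all-hairpin median under each of these, by 0.12 (TMM) to 0.69. Counts of lower members stayed within 1.5 times the 38.

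TMM turned the sign for HIST1H2AC TRCN0000074573 (5.42), TRCN0000074575 (6.47) and TRCN0000074577 (6.19), HIST1H2AE TRCN0000106840 (3.10) and TRCN0000106844 (3.01), HIST1H2AH TRCN0000106762 (2.50), HIST1H2AM TRCN0000106940 (3.03), HIST2H2AB TRCN0000074249 (3.63), HIST2H2AC TRCN0000106846 (1.86) and HIST3H2A TRCN0000106912 (0.45). It did so for the means of HIST1H2AC (4.03), HIST1H2AH (2.84), HIST1H2AM (0.24), HIST2H2AB (1.68) and HIST2H2AC (0.047). Without the 50 hairpins the HIST1H2AC mean (0.37), TRCN0000074573 (1.74), TRCN0000074575 (2.78) and TRCN0000074577 (2.51) turned. TRCN0000106975, the lowest member at -8.24, was not the lowest with a pseudocount of 10 (-5.23, against -5.87 for TRCN0000074252), with TMM (-3.38, against -4.17 for TRCN0000106951) or without the 50 hairpins (-6.96, against -7.42 for TRCN0000106951). The median of the 11 gene means, -4.59, was -0.023 with TMM, -3.22 without the 50 hairpins, -2.71 with a pseudocount of 10 and -5.13 with medians over hairpins.

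Without its most abundant member in each column, the members' share of tags was 0.808%, 0.878%, 1.29%, 1.72% and 0.896% from PD40 to PD60. The member left out was HIST2H2AB TRCN0000074248 from PD40 to PD55 but HIST1H2AH TRCN0000106761 at PD60. These values therefore leave out different hairpins at PD55 and PD60. At PD60 TRCN0000106761 alone had 19942 CPM, more than the 1.72% of tags that the members without TRCN0000074248 held at PD55. With TRCN0000074248 left out at every time, the share would thus be higher at PD60 than at PD55. The peak at PD55 rested on that hairpin. Without the 50 hairpins, TRCN0000106761 and TRCN0000074248 among them, the members' share was 0.861%, 1.03%, 1.76%, 2.40% and 1.62%. Depth limits the low members, since 25 of 42 had under 3 tags at PD60.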
